A study of Mus musculus with 9 samples.

Results

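Tubb3, Dcx, Map2, Stmn2, Stmn3, Ina, Nefl, Nefm, Elavl3 and Elavl4 are 10 genes that newborn neurons switch on for their cytoskeleton and for handling their mRNA. They were chosen by name, as the table entries whose Ensembl ID maps to these mouse symbols, with earlier results of these data known. The shares of all tested genes given beside their counts are therefore a description, not an independent test of the set. All 10 were found among the 54532 genes of the deposited count table, and all 10 were among the 16772 genes with enough counts to test. They were read in 9 RNA-seq libraries, 3 biological replicates in each of 3 groups. SAG GFP+ cells had grown in N2B27 medium to which SAG was added, a compound that activates Smoothened and so the hedgehog pathway. RA GFP+ cells had grown in N2B27 medium with all-trans retinoic acid (RA), as had RA GFP- cells. Every group was derived from the R1 mouse embryonic stem cell line of FoxA2-Venus genotype, a fluorescent reporter of the floor plate transcription factor Foxa2. All were neural tube organoids, small clonal cultures in Matrigel, whose medium was changed on Day 2 and which were dissociated 66 h later. Cells were then sorted into high (GFP+) and low (GFP-) fluorescence. SAG is given in the sample titles alone: the protocol texts name N2B27 with or without RA, and give neither a SAG dose nor whether those cells also met RA. The material is a single cell line, and GFP- cells from SAG medium were not analysed here.

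Microtubules are hollow polymers of alpha- and beta-tubulin, and the axon and dendrites of a young neuron are built on them. Tubb3 encodes the beta-tubulin that neurons favour, doublecortin (Dcx) and Map2 bind and stabilise the polymer, and the stathmins Stmn2 and Stmn3 bind free tubulin and promote disassembly at the growing tip. Alpha-internexin (Ina) and the neurofilament light and medium chains (Nefl, Nefm) form the intermediate filaments of axons. Elavl3 and Elavl4, also called HuC and HuD, are RNA-binding proteins that attach to AU-rich stretches of mRNA and stabilise neuronal transcripts. In the neural tube these genes come on as progenitors leave the cell cycle, so they are widely used to mark neurons among dividing cells.

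Depth was even across the 9 libraries, with total counts of 25281871 to 29763765. Among the 10 genes a library held between 26 counts, for Nefm, and 5038 counts, for Stmn2. Foxa2 followed the sort in every library, at 205 to 326 CPM in SAG GFP+, 133 to 184 CPM in RA GFP+ and 1.33 to 2.51 CPM in RA GFP- libraries. CPM is a gene's count as its share of the library total, in the usual per-million unit, after scaling between libraries by the trimmed mean of M values (TMM). The summed level of 9 neural progenitor genes, among them Sox1, Sox2 and Nes, was 1446 to 1596 CPM in SAG GFP+, 570 to 857 CPM in RA GFP+ and 1478 to 1636 CPM in RA GFP- libraries, so progenitor transcripts were present in all groups and lowest in RA GFP+ cells. In RA GFP+ against RA GFP- libraries 8 of these 9 genes were lower, while 6 of 8 mesenchyme and 6 of 8 endoderm genes were higher.

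The DNA around the start sites of the 10 genes was read from RefSeq (GRCm38.p6) and searched on both strands. Of the 10 symbols, 7 were matched, namely Tubb3, Dcx, Map2, Stmn3, Ina, Elavl3 and Elavl4, with 11 start sites in all. The stretches shown are the 250 bases before a start site, 5′ to 3′ on the gene's strand, for genes where this stretch overlaps no exon annotated by GENCODE M21: Stmn3 at chr2:181314501-181314750 (minus), Elavl3 at chr9:22052024-22052273 (minus), 1 start site of Elavl4 at chr4:110287528-110287777 (minus) and Ina at chr19:47014431-47014680 (plus). A further Elavl4 start site, whose stretch at chr4:110351912-110352161 (minus) overlaps no exon either, held none of the motifs searched and is not printed. Capitals mark CAGATG and CAGCTG, forms of the E-box CANNTG that proneural basic helix-loop-helix factors bind, and TATAAA, the TATA box.
Stmn3: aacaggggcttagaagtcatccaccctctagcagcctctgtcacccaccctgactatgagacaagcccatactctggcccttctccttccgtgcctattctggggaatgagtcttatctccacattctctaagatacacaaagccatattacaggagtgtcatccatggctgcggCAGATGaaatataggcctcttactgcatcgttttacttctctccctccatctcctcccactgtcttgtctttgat
Elavl3: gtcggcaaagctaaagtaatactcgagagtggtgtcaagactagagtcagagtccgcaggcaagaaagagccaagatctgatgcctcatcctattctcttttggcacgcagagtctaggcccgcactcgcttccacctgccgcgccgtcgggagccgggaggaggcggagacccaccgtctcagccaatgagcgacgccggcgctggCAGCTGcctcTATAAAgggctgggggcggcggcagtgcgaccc
Elavl4: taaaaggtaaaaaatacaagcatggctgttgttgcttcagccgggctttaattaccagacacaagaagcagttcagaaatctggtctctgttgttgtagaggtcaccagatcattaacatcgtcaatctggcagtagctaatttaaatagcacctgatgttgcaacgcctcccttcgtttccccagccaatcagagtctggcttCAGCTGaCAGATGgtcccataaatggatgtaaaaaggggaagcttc
Ina: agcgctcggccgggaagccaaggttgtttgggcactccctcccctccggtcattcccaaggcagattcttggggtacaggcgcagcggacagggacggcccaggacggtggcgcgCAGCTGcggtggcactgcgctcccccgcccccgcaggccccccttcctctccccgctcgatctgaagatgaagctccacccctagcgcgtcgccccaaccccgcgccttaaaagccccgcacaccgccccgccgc
CAGATG lay 75 bases before the Stmn3 start site and 39 before this Elavl4 start site, and 17.2% of all 32817 RefSeq windows of 300 bases (250 before and 50 after a start site) held it. CAGCTG lay 43 bases before the start site of Elavl3, 46 before that of Elavl4 and 135 before that of Ina, and 16.3% of all windows held it. CAGATG and CAGCTG each lay in 4 of the 11 windows of these genes, and some Elavl4 windows overlap, so a site can count more than once. Any CANNTG, which includes both forms, was found for Stmn3, Elavl3, Elavl4 and Ina. It lay in 6 of the 11 windows, against 72.3% of all windows, so it was no more frequent here than in general. TATAAA lay 33 bases before the Elavl3 start site, and 98 and 193 bases before the start sites of Dcx (13.6% of all windows). The Dcx windows overlap, and these are the same TATAAA seen from different start sites. Of the pieces of the element bound by the repressor REST, CAGCACC lay 121 bases before the Tubb3 start site (7.14% of all windows). GGACAGC lay 11 bases after the Tubb3 start site and 220 bases before that of Map2 (6.56%). The Tubb3 pieces thus lay apart, on either side of the start site. These are matches of letters in a window, not measured binding, and their part in the changes below was not tested.

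RA GFP+ cells held less of all 10 transcripts than RA GFP- cells. Every gene was called lower by edgeR's quasi-likelihood test with Benjamini-Hochberg adjustment (10 of 10, the highest adjusted p being 0.0119, for Elavl4), while 8.43% of the 16772 tested genes were called lower. The decreases ran from 3.05-fold for Map2 to 6.51-fold for Elavl3. The 3 RA GFP+ libraries lay below the 3 RA GFP- libraries for each gene, which 18.1% of tested genes also showed, and each gene was lower in all of its same-numbered pairs of RA libraries. The median log2 fold change of the 10 genes was -2.15, against -0.018 over all tested genes. In sorted bulk samples, fewer cells of a type and less RNA of a gene per cell cannot be told apart. The call of Elavl4 was lost without RA GFP+ replicate 2 (log2 change of -1.61, adjusted p = 0.0577) and, narrowly, with limma voom (-1.84, adjusted p = 0.0502).

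SAG GFP+ cells held more of 9 of the 10 transcripts than RA GFP+ cells. The 9 called higher were all except Dcx, and all 10 fold changes were positive, while 9.78% of tested genes were called higher. The increases ran from 2.53-fold for Ina and 2.55-fold for Map2 to 22.5-fold for Stmn2. For the same 9 genes the SAG GFP+ libraries all lay above the RA GFP+ libraries, which 19.8% of tested genes showed. The median log2 fold change of the 10 genes was 2.61, against -0.017 over all tested genes. It was 2.95 without SAG GFP+ replicate 1, and 9 genes were called whichever single library was left out.

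SAG GFP+ and RA GFP- cells, the populations with more of these transcripts, differed in 5 of them. Stmn2, Elavl4 and Stmn3 were called higher in SAG GFP+ cells, against 12.0% of tested genes, and Dcx and Ina were called lower, against 16.5%. For these 5 the groups did not overlap, as for 19.0% of tested genes in the higher and 22.1% in the lower direction. The 2 of 10 genes that were lower are near the share of all tested genes. That count is therefore no result about the set. Tubb3, Map2, Elavl3, Nefl and Nefm were not called, and their libraries overlapped between the groups. The median log2 fold change was 0.42, against -0.009 over all tested genes. Sort and medium both differ here and cannot be told apart. Each pair of these 3 comparisons shares a group, so they are not independent of each other. Without SAG GFP+ replicate 1, Nefl (0.97, adjusted p = 0.02) and Nefm (0.92, adjusted p = 0.0442) were also called higher, making 5.

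**Figure D1:**
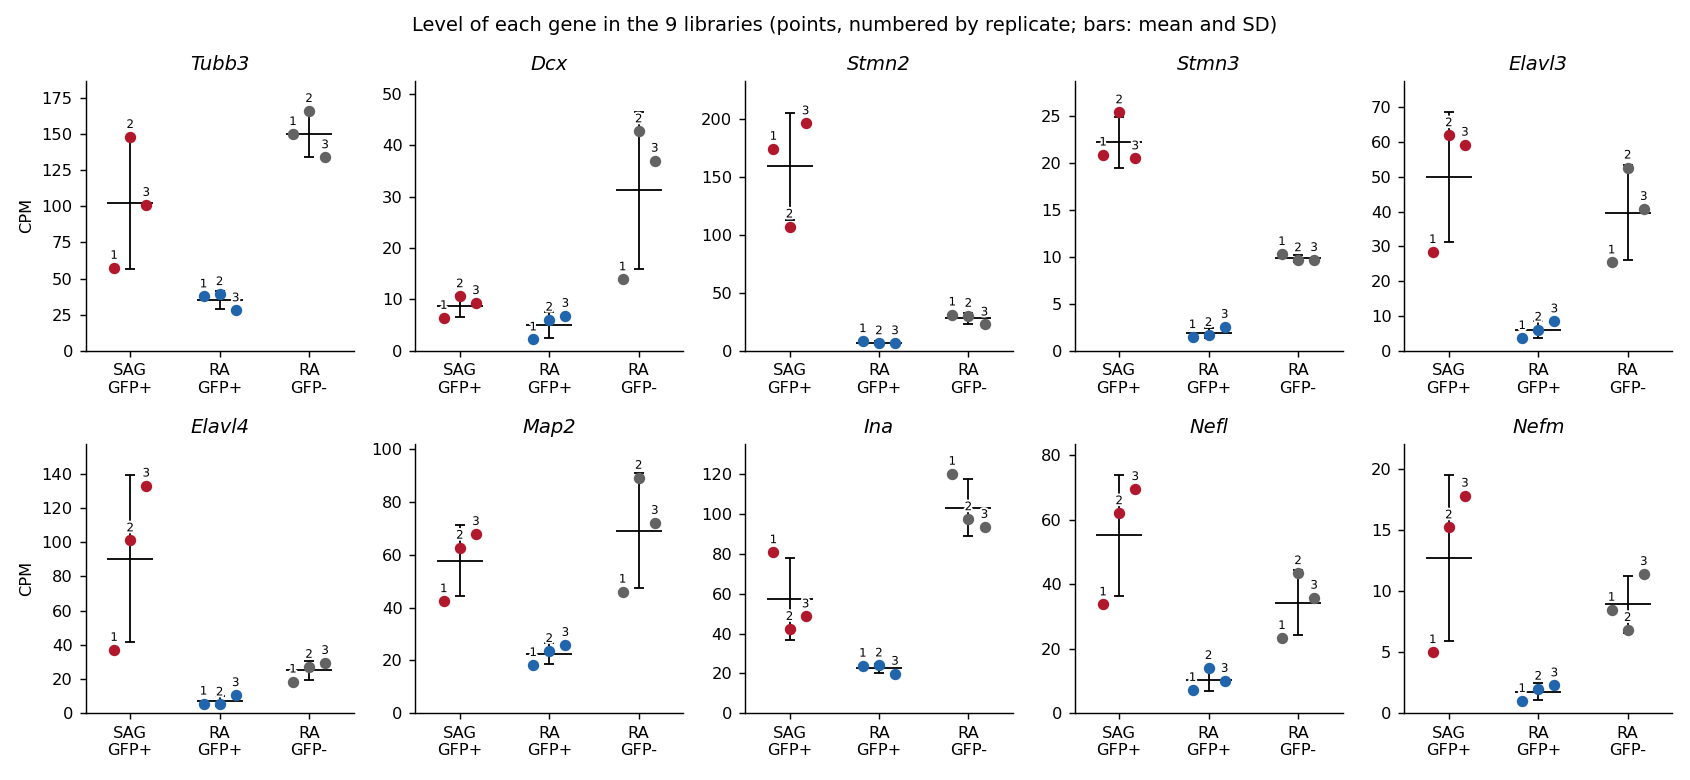
Level of each gene in CPM (vertical axis, from 0, a scale per panel) in the SAG GFP+, RA GFP+ and RA GFP- libraries; points are libraries numbered by replicate, bars the mean and SD (n = 3). The RA GFP+ mean is the lowest in all 10 panels, and the SAG GFP+ points lie clear above the RA GFP- points for Stmn2, Stmn3 and Elavl4 and clear below them for Dcx and Ina.

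Among the microtubule genes, Tubb3 (ENSMUSG00000062380, chromosome 8, 123411424 to 123422015, plus strand, GRCm38) stood at 57.4, 148 and 101 CPM in SAG GFP+, 37.6, 39.2 and 28 CPM in RA GFP+ and 150, 166 and 134 CPM in RA GFP- replicates 1 to 3. The RA GFP+ libraries stood apart below the rest, while SAG GFP+ replicate 2 reached into the RA GFP- range and replicate 1 came nearest to the RA GFP+ libraries. Tubb3 fell 4.3-fold in RA GFP+ against RA GFP- libraries (-2.10 in log2 units, with an SE of 0.28 and adjusted p = 0.000467). It rose 2.92-fold in SAG GFP+ against RA GFP+ libraries (1.55, SE 0.27, adjusted p = 0.00181). SAG GFP+ and RA GFP- libraries averaged 102 ± 45.2 and 150 ± 15.9 CPM (SD, n = 3 each) and did not pass the test (-0.56, SE 0.27, adjusted p = 0.141). Without SAG GFP+ replicate 2, Tubb3 was called lower there (-0.90, adjusted p = 0.0249), and it was also called with no filter on low counts (-0.54, adjusted p = 0.0138).

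Doublecortin, which neurons carry while they migrate, was low in both GFP+ groups. Dcx (ENSMUSG00000031285, chromosome X, 143855842 to 143933311, minus strand) stood at 6.4, 10.6 and 9.3 CPM in SAG GFP+, 2.19, 6.05 and 6.8 CPM in RA GFP+ and 13.9, 42.7 and 37 CPM in RA GFP- replicates 1 to 3. All RA GFP- libraries lay above all GFP+ libraries, and the GFP+ groups overlapped. Dcx fell 6.2-fold in RA GFP+ against RA GFP- libraries (-2.63 in log2 units, with an SE of 0.46 and adjusted p = 0.00252) and 3.56-fold in SAG GFP+ against RA GFP- libraries (-1.83, SE 0.45, adjusted p = 0.0101). Against RA GFP+ libraries, SAG GFP+ libraries differed by 0.80 (SE 0.45, adjusted p = 0.22), averaging 8.77 ± 2.15 against 5.01 ± 2.47 CPM. This difference was called with no filter on low counts (0.80, adjusted p = 0.0298) and with a replicate block over the 9 libraries (0.92, adjusted p = 0.0108) or over the 6 compared (0.93, adjusted p = 0.0427).

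Map2, the microtubule-associated protein of dendrites, had the smallest decrease of the 10 genes in RA GFP+ against RA GFP- libraries. Map2 (ENSMUSG00000015222, chromosome 1, 66175273 to 66442583, plus strand) stood at 42.4, 62.6 and 67.8 CPM in SAG GFP+, 18.3, 23.6 and 25.9 CPM in RA GFP+ and 46, 89 and 72 CPM in RA GFP- replicates 1 to 3. The RA GFP+ libraries lay lowest and the other groups overlapped. Map2 fell 3.05-fold in RA GFP+ against RA GFP- libraries (-1.61 in log2 units, with an SE of 0.25 and adjusted p = 0.00121) and rose 2.55-fold in SAG GFP+ against RA GFP+ libraries (1.35, SE 0.25, adjusted p = 0.00231). The difference of SAG GFP+ from RA GFP- libraries was -0.26 (SE 0.24, adjusted p = 0.46), and no alternative called it. Of the 16449 exon bases of Map2, 0.754% overlap an antisense gene that had 0 counts.

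Of the 10 genes, Stmn2 rose most under SAG. Stmn2, known as SCG10 (ENSMUSG00000027500, chromosome 3, 8509360 to 8561606, plus strand), stood at 174, 107 and 196 CPM in SAG GFP+, 8.27, 6.42 and 6.52 CPM in RA GFP+ and 31.2, 30.1 and 22.6 CPM in RA GFP- replicates 1 to 3. No group overlapped another, and the order was SAG GFP+, RA GFP-, RA GFP+. Stmn2 rose 22.5-fold in SAG GFP+ against RA GFP+ libraries (4.49 in log2 units, with an SE of 0.25 and adjusted p = 9.07e-07) and 5.68-fold against RA GFP- libraries (2.51, SE 0.22, adjusted p = 1.45e-05). It fell 3.96-fold in RA GFP+ against RA GFP- libraries (-1.99, SE 0.23, adjusted p = 0.000177).

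Stmn3 (ENSMUSG00000027581, chromosome 2, 181306459 to 181314500, minus strand) had the same order at a lower count. It stood at 20.9, 25.4 and 20.5 CPM in SAG GFP+, 1.45, 1.68 and 2.55 CPM in RA GFP+ and 10.3, 9.64 and 9.67 CPM in RA GFP- replicates 1 to 3. The groups did not overlap, and the RA GFP- libraries were the tightest group of any of the 10 genes, with an SD of 3.63% of the mean. Stmn3 rose 11.7-fold in SAG GFP+ against RA GFP+ libraries (3.55 in log2 units, with an SE of 0.25 and adjusted p = 3.78e-06) and 2.25-fold against RA GFP- libraries (1.17, SE 0.22, adjusted p = 0.00211). It fell 5.19-fold in RA GFP+ against RA GFP- libraries (-2.38, SE 0.24, adjusted p = 7.22e-05). All calls of Stmn2 and Stmn3 held in each of the 18 alternatives. Their relatives Stmn1 and Stmn4, named after their values were seen, were called in none of the comparisons, with Stmn1 at 130 ± 49.2 CPM in SAG GFP+, 89.7 ± 3.52 CPM in RA GFP+ and 111 ± 16.6 CPM in RA GFP- libraries.

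Among the intermediate filaments, alpha-internexin was highest in RA GFP- cells, whereas the means of Nefl and Nefm were highest in SAG GFP+ cells. Ina (ENSMUSG00000034336, chromosome 19, 47014698 to 47025327, plus strand) stood at 80.7, 42.3 and 48.6 CPM in SAG GFP+, 23.9, 24 and 19.9 CPM in RA GFP+ and 120, 97.2 and 93.4 CPM in RA GFP- replicates 1 to 3. No group overlapped another, with RA GFP- highest and SAG GFP+ replicate 1 the closest to it. Ina fell 4.57-fold in RA GFP+ against RA GFP- libraries (-2.19 in log2 units, with an SE of 0.23 and adjusted p = 8.68e-05) and 1.81-fold in SAG GFP+ against RA GFP- libraries (-0.85, SE 0.22, adjusted p = 0.0124), and rose 2.53-fold in SAG GFP+ against RA GFP+ libraries (1.34, SE 0.22, adjusted p = 0.00115). The decrease against RA GFP- libraries was not called without RA GFP- replicate 1 (adjusted p = 0.0551), SAG GFP+ replicate 2 (0.0568) or SAG GFP+ replicate 3 (0.0567). Ina shares 14.1% of its exon bases with Nt5c2 on the opposite strand, which had 13403 counts over the 9 libraries against 14649 for Ina, and the strand setting of the counting is not given in the sources used here.

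The neurofilament light chain Nefl (ENSMUSG00000022055, chromosome 14, 68083863 to 68089095, plus strand) stood at 33.8, 62.1 and 69.6 CPM in SAG GFP+, 7.29, 14.1 and 10.1 CPM in RA GFP+ and 23.4, 43.5 and 35.9 CPM in RA GFP- replicates 1 to 3. The RA GFP+ libraries lay lowest, and SAG GFP+ replicate 1 lay inside the RA GFP- range. Nefl fell 3.25-fold in RA GFP+ against RA GFP- libraries (-1.70 in log2 units, with an SE of 0.32 and adjusted p = 0.00377) and rose 5.24-fold in SAG GFP+ against RA GFP+ libraries (2.39, SE 0.33, adjusted p = 0.000322). SAG GFP+ libraries averaged 55.2 ± 18.9 CPM and RA GFP- libraries 34.3 ± 10.1 CPM, a difference of 0.69 that was not called (SE 0.31, adjusted p = 0.117). It was called with no filter on low counts (0.71, adjusted p = 0.00616) and with a replicate block over 9 (0.68, adjusted p = 0.00425) or 6 libraries (0.66, adjusted p = 0.011).

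Nefm (ENSMUSG00000022054, chromosome 14, 68082590 to 68124846, minus strand) had the fewest counts of the 10 genes. It stood at 5.01, 15.2 and 17.8 CPM in SAG GFP+, 1.02, 2.02 and 2.3 CPM in RA GFP+ and 8.47, 6.82 and 11.4 CPM in RA GFP- replicates 1 to 3. SAG GFP+ replicate 1 lay below all RA GFP- libraries and replicates 2 and 3 above them. Nefm fell 4.97-fold in RA GFP+ against RA GFP- libraries (-2.31 in log2 units, with an SE of 0.46 and adjusted p = 0.00518) and rose 7.1-fold in SAG GFP+ against RA GFP+ libraries (2.83, SE 0.47, adjusted p = 0.00112). Against RA GFP- libraries the difference was 0.51 (SE 0.43, adjusted p = 0.402). Nefl and Nefm lie side by side on opposite strands and share 1108 exon bases, 32.8% of those of Nefl and 19.2% of those of Nefm, so counting without strand could lend reads of each to the other. The heavy chain Nefh, named after its values were seen, was lower in RA GFP+ libraries too (3.7 ± 0.985 against 8.67 ± 1.89 CPM in RA GFP- libraries, -1.22 in log2 units, adjusted p = 0.0182) and was not called under SAG (5.24 ± 1.78 CPM).

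Of the RNA-binding genes, Elavl3 (ENSMUSG00000003410, chromosome 9, 22015005 to 22052023, minus strand) stood at 28.4, 62 and 59.3 CPM in SAG GFP+, 3.65, 6.08 and 8.47 CPM in RA GFP+ and 25.4, 52.7 and 40.8 CPM in RA GFP- replicates 1 to 3. The RA GFP+ libraries stood apart, and the other groups overlapped, with replicate 1 lowest in each. Elavl3 fell 6.51-fold in RA GFP+ against RA GFP- libraries (-2.70 in log2 units, with an SE of 0.38 and adjusted p = 0.000653) and rose 8.2-fold in SAG GFP+ against RA GFP+ libraries (3.03, SE 0.38, adjusted p = 0.000204). SAG GFP+ libraries differed from RA GFP- libraries by 0.33 (SE 0.35, adjusted p = 0.515), and no alternative called it. An unnamed gene model with 0 counts overlaps 3.72% of its exon bases.

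Elavl4 (ENSMUSG00000028546, chromosome 4, 110203722 to 110351909, minus strand) stood at 37.1, 101 and 133 CPM in SAG GFP+, 5.72, 5.21 and 10.7 CPM in RA GFP+ and 18.6, 27.2 and 29.5 CPM in RA GFP- replicates 1 to 3. No group overlapped another, and SAG GFP+ replicate 1 was the library closest to the RA GFP- range. Elavl4 rose 12.5-fold in SAG GFP+ against RA GFP+ libraries (3.64 in log2 units, with an SE of 0.44 and adjusted p = 0.00015) and 3.6-fold against RA GFP- libraries (1.85, SE 0.41, adjusted p = 0.00579). It fell 3.48-fold in RA GFP+ against RA GFP- libraries (-1.80, SE 0.42, adjusted p = 0.0119). Elavl2, a further neuronal member of the family, fell to 33.7 ± 2.94 CPM in RA GFP+ libraries, against 67.3 ± 7.12 CPM in RA GFP- libraries (SE 0.14 in log2 units, adjusted p = 0.000602). The widely expressed Elavl1, named after its values were seen, was called in none of the comparisons (226 ± 13.3, 225 ± 7.24 and 217 ± 23.4 CPM in SAG GFP+, RA GFP+ and RA GFP- libraries).

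**Figure D2:**
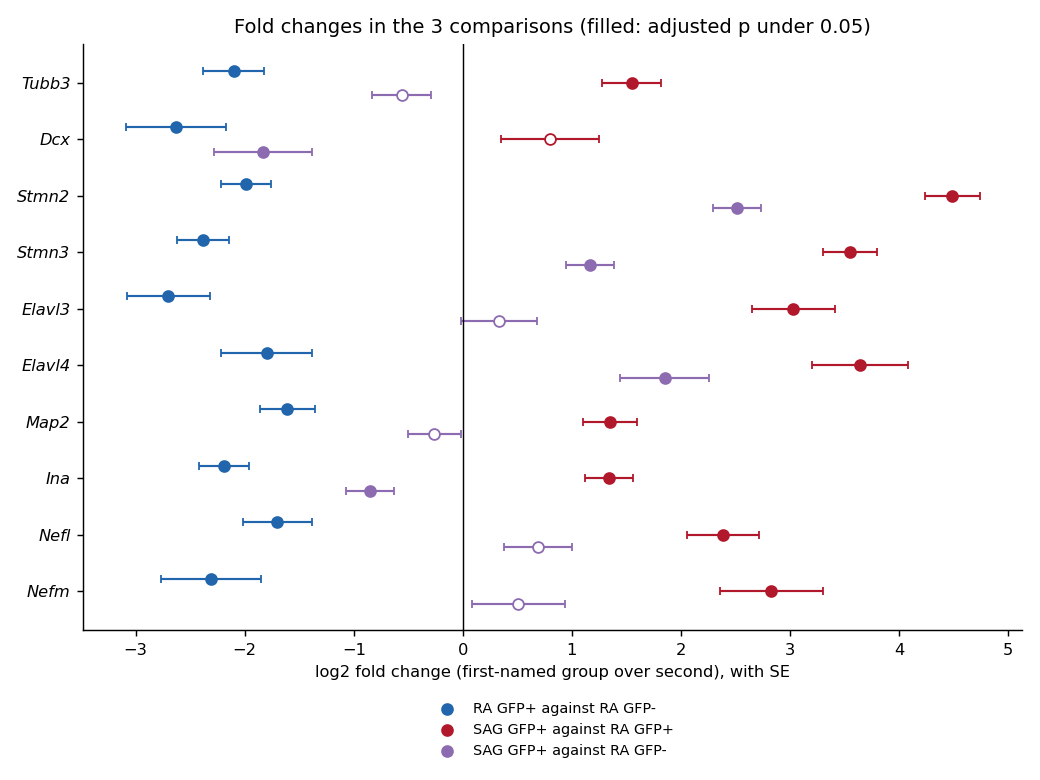
Log2 fold change (horizontal axis) of each gene in the 3 comparisons, the first-named group over the second; bars are SE and filled points passed the test. All 10 RA GFP+ against RA GFP- points lie between -2.70 and -1.61, the SAG GFP+ against RA GFP+ points lie between 0.80 and 4.49, and the SAG GFP+ against RA GFP- points lie on both sides of 0.

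Summed over the 10 genes, the level was 486, 636 and 723 CPM in SAG GFP+, 109, 128 and 121 CPM in RA GFP+ and 447, 565 and 487 CPM in RA GFP- replicates 1 to 3. SAG GFP+ and RA GFP- libraries thus overlapped in the sum, at 615 ± 120 and 500 ± 60 CPM, and the RA GFP+ libraries lay apart. To set genes beside each other, CPM were divided by the length of a gene's annotated exons in kb. Tubb3 then ranked first in all groups, at 54.6 ± 24.2 CPM per kb in SAG GFP+, 18.7 ± 3.24 CPM per kb in RA GFP+ and 80.5 ± 8.52 CPM per kb in RA GFP- libraries. Under SAG its SD reached that of Stmn2, the next gene. Below Tubb3 the order differed. In SAG GFP+ libraries came Stmn2 (28.4 ± 8.25 CPM per kb), Stmn3 (19.6 ± 2.39), Ina (17.7 ± 6.37), Elavl4 (16.8 ± 9.04) and Nefl (16.3 ± 5.58), and from Stmn3 to Nefl neighbours lay within their SDs. In RA GFP- libraries Ina came next (31.9 ± 4.4 CPM per kb), clear of Nefl (10.1 ± 3) and Stmn3 (8.68 ± 0.315), whose SDs overlapped. RA GFP+ libraries also had Ina after Tubb3, at 6.98 ± 0.732 CPM per kb. Dcx and Nefm were the lowest pair per kb in all groups, from 0.308 to 2.47 CPM per kb. For genes with long exons such as Map2 (16.4 kb) the annotated length may exceed that of the transcript in use.

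As a share of the 10 genes' summed CPM per kb, SAG GFP+ libraries stood apart from both RA groups for Tubb3, Dcx, Stmn2 and Stmn3. Tubb3 made up 31.8% in SAG GFP+ libraries (23.6 to 42.3%), 51.7% in RA GFP+ libraries (45.1 to 56.7%) and 51.9% in RA GFP- libraries (49.8 to 53.1%). Stmn2 made up 17.7% in SAG GFP+ libraries (10.2 to 23.9%), 3.52% in RA GFP+ libraries (2.91 to 4.16%) and 3.22% in RA GFP- libraries (2.8 to 3.68%). Stmn3 made up 12% in SAG GFP+ libraries, 4.7% in RA GFP+ libraries and 5.63% in RA GFP- libraries. For these genes no SAG GFP+ library reached the range of either RA group. Dcx lay below both RA ranges under SAG, at 0.412%, 1.11% and 1.58% in SAG GFP+, RA GFP+ and RA GFP- libraries. Elavl4 and Ina shares overlapped with those of at least 1 RA group. Between the RA groups, the shares of all 10 genes overlapped. Shares are given without a test, since 3 libraries against 3 cannot go below 0.10 in an exact two-sided permutation test. Without division by length, Stmn2 and not Tubb3 had the first rank under SAG (26.6% against 16.3%).

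**Figure D3:**
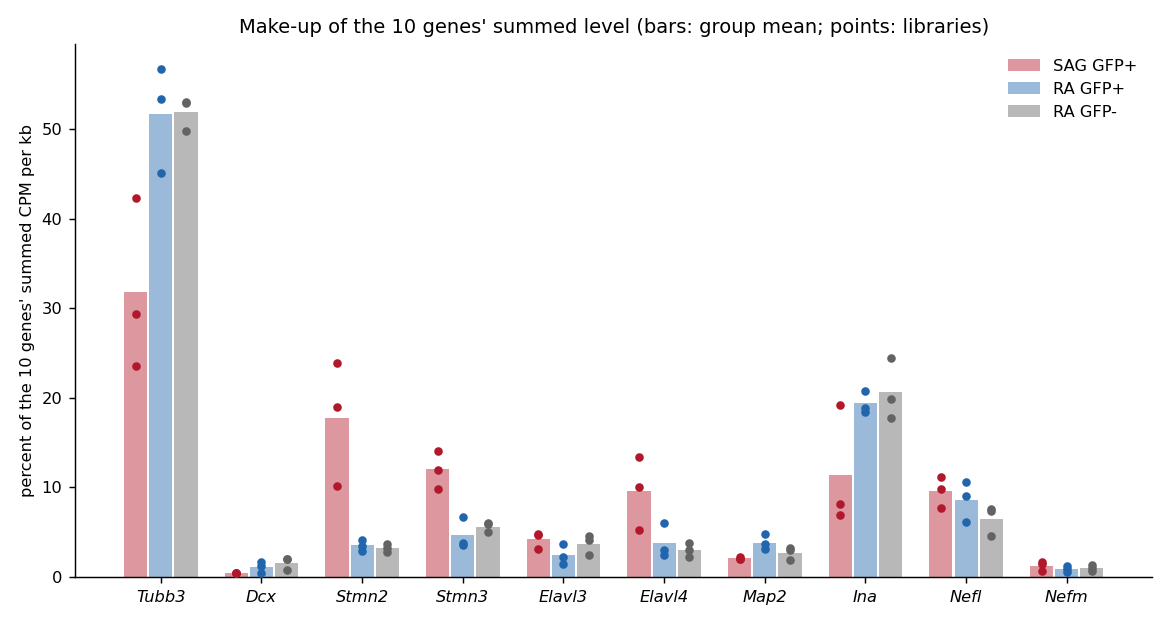
Share of each gene in the 10 genes' summed CPM per kb (vertical axis, percent, from 0) in SAG GFP+, RA GFP+ and RA GFP- libraries; bars are group means and points libraries. Tubb3 has a mean of 31.8 in SAG GFP+, against 51.7 in RA GFP+ and 51.9 in RA GFP- libraries, and Stmn2 (17.7) and Stmn3 (12) have larger shares in SAG GFP+ than in RA libraries.

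Within groups, replicate 1 often held the lowest value. In SAG GFP+ libraries 7 of the 10 genes were lowest in replicate 1, in RA GFP+ libraries 6 and in RA GFP- libraries 5. Dcx, Elavl3, Map2 and Nefl were lowest in replicate 1 of every group. Stmn2 and Ina went the other way under SAG, with replicate 2 lowest. SAG GFP+ replicate 1 also differed from the other SAG GFP+ replicates in markers of other cells. Motor neuron genes summed to 101, 324 and 366 CPM in SAG GFP+ replicates 1 to 3, neural crest and peripheral glia genes to 79.9, 182 and 221 CPM and pluripotency genes to 225, 60.5 and 71.2 CPM. The pluripotency factor Pou5f1, named after its values were seen, stood at 171, 37.4 and 39.3 CPM. Not all of this was particular to the SAG library. Crest genes were also lowest in replicate 1 of RA GFP+ (86.1, 138 and 160 CPM) and RA GFP- libraries (136, 208 and 175 CPM). Pluripotency genes were also highest in replicate 1 of RA GFP- libraries (960, 588 and 763 CPM), but not of RA GFP+ libraries (43.2, 35.1 and 47.4 CPM). The part of these markers in the lower neuronal values of SAG GFP+ replicate 1 was not tested. Without that library, the log2 fold changes of SAG GFP+ against RA GFP+ libraries were 4.04 for Elavl4, 3.34 for Elavl3, 3.23 for Nefm and 1.03 for Ina. With it they were 3.64, 3.03, 2.83 and 1.34.

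**Figure D4:**
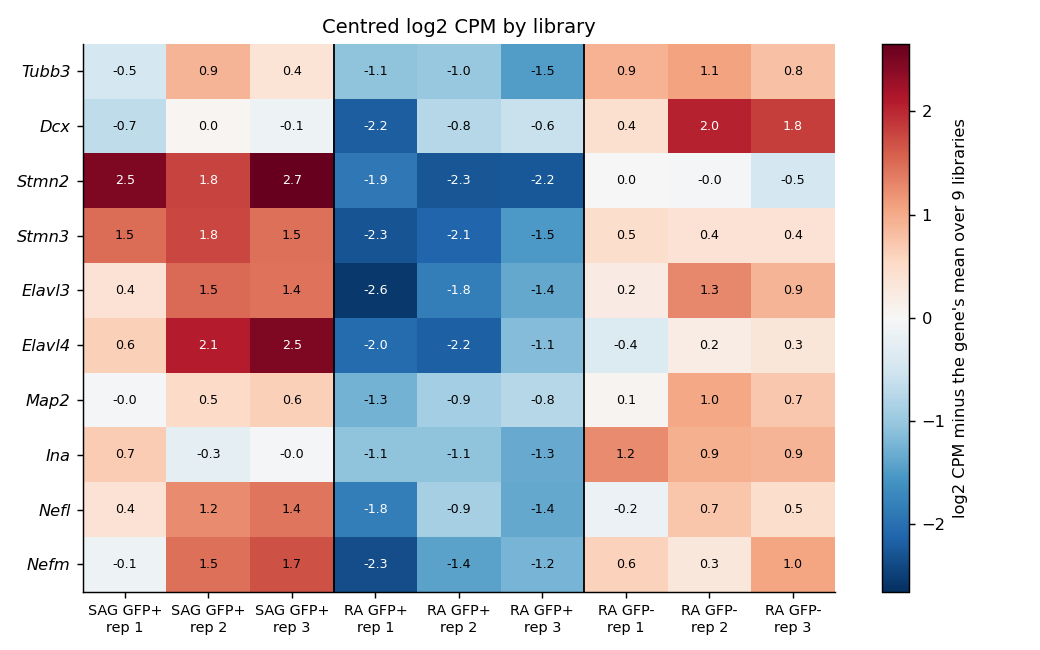
Log2 CPM (prior count 2) of each gene minus its mean over the 9 libraries, by library, with the colour scale in log2 units. Blue RA GFP+ columns run through all 10 genes from -2.553 to -0.591; Stmn2 reaches 2.652 in SAG GFP+ replicate 3 and Dcx 2.045 in RA GFP- replicate 2.

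Likeness of pattern was measured as the root mean square difference of centred log2 CPM over the 9 libraries, among 13911 genes that averaged at least 1 CPM; it is a description, and the libraries share their groups. Tubb3 and Map2 were each other's nearest among the 10 (0.44), Elavl3 and Nefm likewise (0.43), and Nefl was nearest to Nefm (0.48). Stmn2 was nearest to Stmn3 (0.69) and farthest from Dcx (1.99). For comparison, the median distance from Stmn2 to all genes was 1.87 and from Map2 0.83. Of all other genes, the nearest to Map2 was the splicing regulator Nova2 (0.15), at 46 ± 6.27 CPM in SAG GFP+, 19.8 ± 5.73 CPM in RA GFP+ and 58.7 ± 15.1 CPM in RA GFP- libraries. The nearest to Elavl3 was the neuronal splicing factor Srrm4 (0.21), the nearest to Nefl the synaptotagmin Syt2 (0.24), the nearest to Stmn3 the vesicle GTPase gene Rab3c (0.27) and the nearest to Nefm the splicing factor Rbfox3 (0.39), known as NeuN. Ina was nearest to Mkrn1 (0.27), Tubb3 to Rundc3a (0.29), Dcx to Ndnf (0.34), Stmn2 to Fam19a4 (0.38) and Elavl4 to the teneurin Tenm2 (0.40).

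Genes of the same programme were read from lists, beginning with factors of neurogenesis, which are not all transcription factors. Of 28 tested, 21 were lower and 1 higher in RA GFP+ against RA GFP- libraries (8.49% of all tested genes were called higher), with a median log2 fold change of -2.12. Dll3, a divergent Notch ligand, fell by 1.68 on the log2 scale and Gadd45g fell by 2.72 (adjusted p = 3.49e-05 for both). Sox4 rose to 654 ± 16.3 CPM in RA GFP+ libraries, against 231 ± 23.8 CPM in RA GFP- libraries (SE 0.13 in log2 units, adjusted p = 3.49e-05). In SAG GFP+ against RA GFP+ libraries 17 were higher and 2 lower (14.8% of all tested genes were called lower), with a median of 1.29. Neurod4 rose by 6.30 (SE 0.58, adjusted p = 2.46e-05), at 83.5 ± 50.3 CPM in SAG GFP+ and 1.05 ± 0.302 CPM in RA GFP+ libraries, and Insm1 by 4.62 (SE 0.38, adjusted p = 1.23e-05). Against RA GFP- libraries, SAG GFP+ libraries were mixed, with 6 higher and 9 lower: Neurod4 rose (2.92, SE 0.47, adjusted p = 0.000858), while Neurog1 (-4.40, SE 0.80, adjusted p = 0.0018) and Scrt1 (-2.70, SE 0.41, adjusted p = 0.000567) fell. Without SAG GFP+ replicate 1, 10 were higher.

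Of 19 tested neuronal RNA-binding and splicing genes other than Elavl3 and Elavl4, 10 were lower and 1 higher in RA GFP+ against RA GFP- libraries, with a median log2 fold change of -0.74 (5 were lower without RA GFP+ replicate 2). In SAG GFP+ against RA GFP+ libraries 14 were higher and 1 lower, with a median of 0.81. Celf3 had the highest fold change of the list, at -3.87 (SE 0.45, adjusted p = 0.000193) and 4.16 (SE 0.45, adjusted p = 7.01e-05) in these comparisons, followed by Srrm4 (-3.01 and 3.36). SAG GFP+ against RA GFP- libraries gave 2 higher and 1 lower, with Qk higher by 1.07 (SE 0.16, adjusted p = 0.000456). In that comparison 12.0% of all tested genes were called higher and 16.5% lower. The list's counts there are near or below these shares and are no result about the list. The higher count was 4 without SAG GFP+ replicate 1, and 1 when RA GFP- replicate 1 or 2 or SAG GFP+ replicate 3 was left out.

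Genes of synapses and excitability were lower in RA GFP+ libraries for 11 of 23 and higher for 0 (median -1.29), among them Snap25 of the vesicle fusion machinery (-2.29, SE 0.38, adjusted p = 0.00173). In SAG GFP+ against RA GFP+ libraries 12 were higher and 0 lower (median 1.27). Snap25 rose to 6.07 ± 0.955 CPM in SAG GFP+ libraries, against 0.531 ± 0.135 CPM in RA GFP+ libraries (3.50, SE 0.38, adjusted p = 7.57e-05), and Rab3c rose by 4.09 (SE 0.44, adjusted p = 6.67e-05). Against RA GFP- libraries 4 were higher and 2 lower, with the complexin gene Cplx2 higher by 1.36 (SE 0.14, adjusted p = 3.92e-05). Those counts are near or below the shares of all tested genes, 12.0% higher and 16.5% lower, and are no result about the list. Of 19 tested genes of axon growth and adhesion, 7 were lower and 2 higher in RA GFP+ against RA GFP- libraries, 10 higher and 2 lower in SAG GFP+ against RA GFP+ libraries, and 7 higher and 2 lower in SAG GFP+ against RA GFP- libraries. The adhesion gene Cntn2 fell by 3.31 (SE 0.42, adjusted p = 0.000364) and rose by 2.67 (SE 0.41, adjusted p = 0.000739) in the first and second of these. The first count of lower genes was 4 when RA GFP- replicate 2 or RA GFP+ replicate 1 was left out.

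Other cytoskeletal genes were read from further lists. Of 37 genes of microtubule-associated and severing proteins, 8 were lower and 1 higher in RA GFP+ against RA GFP- libraries (median -0.08), 12 higher and 1 lower in SAG GFP+ against RA GFP+ libraries (median 0.37) and 12 higher and 3 lower in SAG GFP+ against RA GFP- libraries (median 0.15). The lower count was 4 with RA GFP+ replicate 1 left out and 5 with RA GFP- replicate 2 or 3 left out, and the higher count in the last comparison was 7 without SAG GFP+ replicate 2 and 5 without replicate 3. Crmp1, which links semaphorin signals to microtubules, fell by 1.33 in RA GFP+ against RA GFP- libraries (SE 0.16, adjusted p = 0.000202) and rose by 2.40 in SAG GFP+ against RA GFP+ libraries (SE 0.16, adjusted p = 3.47e-06). Map1b reached 1299 ± 234 CPM in SAG GFP+, against 395 ± 73.7 CPM in RA GFP+ libraries (1.72, SE 0.23, adjusted p = 0.000287). Dpysl3, a relative of Crmp1 named by the same rule, was highest in RA GFP- cells as Dcx was, at 59.5 ± 8.17, 62.1 ± 19.4 and 212 ± 76.5 CPM in SAG GFP+, RA GFP+ and RA GFP- libraries.

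Of 13 tested tubulin genes other than Tubb3, 2 were higher and 1 lower in RA GFP+ against RA GFP- libraries, 4 higher and 2 lower in SAG GFP+ against RA GFP+ libraries, and 2 higher and 3 lower in SAG GFP+ against RA GFP- libraries. Tubb2b, a further isotype of neurons, fell by 1.42 in RA GFP+ against RA GFP- libraries (SE 0.12, adjusted p = 3.1e-05) and rose by 1.03 in SAG GFP+ against RA GFP+ libraries (SE 0.12, adjusted p = 0.000134), while Tubb6 went the opposite way (0.66 and -0.64). Tubb4a was higher in SAG GFP+ than in RA GFP- cells (SE 0.20 in log2 units, adjusted p = 1.27e-05) and stood between them in RA GFP+ cells, at 30.4 ± 3.83, 12.7 ± 0.952 and 6.2 ± 1.37 CPM in SAG GFP+, RA GFP+ and RA GFP- libraries. Tubulins of the same family, alpha or beta, are alike in sequence, so reads may be shared within a family. Of 15 tested genes of tubulin folding and modification, 0 were higher and 1 lower in RA GFP+ against RA GFP- libraries, 1 higher and 1 lower in SAG GFP+ against RA GFP+ libraries and 2 higher and 2 lower in SAG GFP+ against RA GFP- libraries, with the deacetylase gene Hdac6 lower under SAG (-1.09, SE 0.15, adjusted p = 0.000284, against RA GFP+ libraries). In RA GFP+ against RA GFP- libraries 8.49% of all tested genes were called higher and 8.43% lower. The shares were 9.78% and 14.8% in SAG GFP+ against RA GFP+ and 12.0% and 16.5% in SAG GFP+ against RA GFP- libraries. Most tubulin counts are near these shares. The folding and modification counts are near or below them and are no result about that list. These small counts moved when single libraries were left out. The lower count in RA GFP+ against RA GFP- libraries was 0 without RA GFP- replicate 3 or any 1 of the RA GFP+ replicates. The higher count in SAG GFP+ against RA GFP+ libraries was 0 when RA GFP- replicate 2, RA GFP+ replicate 1 or 2, or SAG GFP+ replicate 2 or 3 was left out, and 2 without SAG GFP+ replicate 1. Against RA GFP- libraries, the higher count of SAG GFP+ libraries was 0 without SAG GFP+ replicate 3 and 1 when RA GFP- replicate 1 or 2, RA GFP+ replicate 2 or SAG GFP+ replicate 2 was left out, and the lower count was 1 without RA GFP- replicate 2 or SAG GFP+ replicate 2 or 3. Of the tubulin counts, the 3 lower genes against RA GFP- libraries were 1 without RA GFP- replicate 2 or SAG GFP+ replicate 2, and without SAG GFP+ replicate 3 the 2 lower genes against RA GFP+ and the 2 higher genes against RA GFP- libraries were 1 each.

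**Figure D5:**
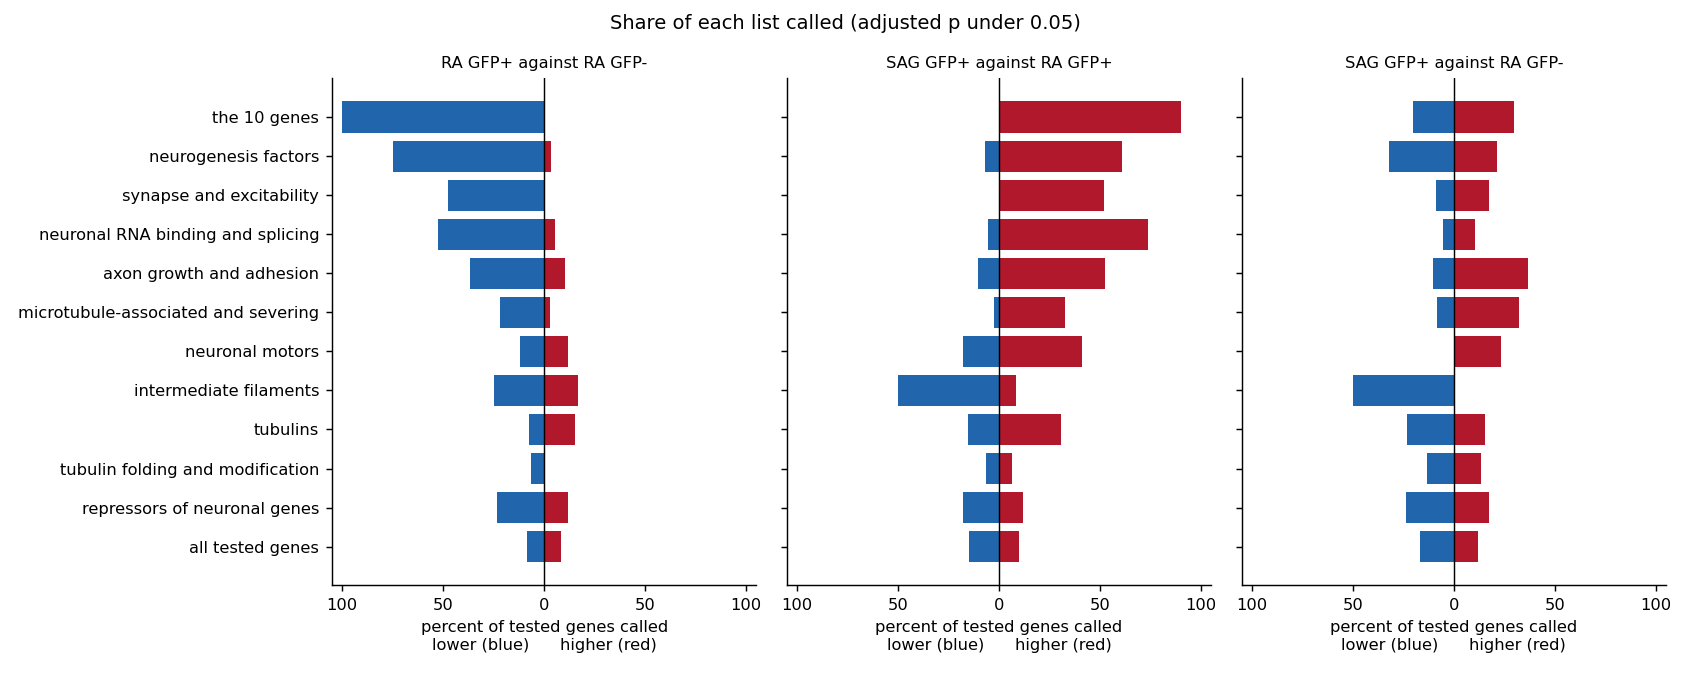
Percent of the tested genes of each list called lower (left of 0) and higher (right of 0) in the 3 comparisons, with all tested genes at the bottom. The bars of the 10 genes reach 100% lower, then 90% higher, and are then split, while intermediate filament genes are lower in 6 of 12 under SAG.

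Markers of other cell types moved with these results. In RA GFP+ against RA GFP- libraries 8 of 9 neural progenitor genes were lower and 0 higher, 5 of 6 pluripotency genes lower (summed 35.1 to 47.4 against 588 to 960 CPM), 6 of 8 mesenchyme genes higher (78.5 to 88.6 against 21.4 to 23.4 CPM) and 6 of 8 endoderm genes higher (235 to 327 against 120 to 184 CPM). Their part in the lower neuronal transcripts of RA GFP+ cells was not tested. In SAG GFP+ against RA GFP+ libraries 8 of 9 progenitor genes were higher (5 without RA GFP+ replicate 1 or SAG GFP+ replicate 2) and 1 lower, 5 of 8 endoderm genes lower and 1 higher (99.1 to 118 against 235 to 327 CPM) and 4 of 8 mesenchyme genes lower (33.2 to 54.8 against 78.5 to 88.6 CPM). The lower progenitor count was 0 when any library other than RA GFP+ replicate 1 or SAG GFP+ replicate 1 was left out. The higher endoderm count was 0 without RA GFP+ replicate 1 or 2 or SAG GFP+ replicate 3. In the same comparison 5 of 7 tested motor neuron genes were higher and 1 lower, with summed levels of 101 to 366 CPM in SAG GFP+, 16.9 to 24.6 CPM in RA GFP+ and 9.18 to 11.2 CPM in RA GFP- libraries. Mnx1 was the lower gene. In RA GFP+ against RA GFP- libraries 2 of the 7 were higher and 1 lower: Mnx1 (2.83, SE 0.28, adjusted p = 7.22e-05) and Isl1 (1.76, SE 0.54, adjusted p = 0.0452) were higher and Isl2 (-2.03, SE 0.43, adjusted p = 0.00684) was lower. That higher count was 1 when any library other than SAG GFP+ replicate 1 or 3 was left out, and the lower count was 2 when any library other than RA GFP- replicate 1 or 3 was left out. The 6 sensory neuron genes summed to 20.9 to 29.6 CPM in SAG GFP+, 64.6 to 88.6 CPM in RA GFP+ and 67.4 to 78 CPM in RA GFP- libraries. Their part was not tested either.

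Pluripotency genes were lower for 6 of 6 in SAG GFP+ against RA GFP- libraries and split, 3 higher and 3 lower, in SAG GFP+ against RA GFP+ libraries (60.5 to 225 CPM summed under SAG). Neural crest and peripheral glia genes summed to 79.9 to 221, 86.1 to 160 and 136 to 208 CPM, oligodendrocyte lineage genes to 32.6 to 58.2, 50.6 to 74.8 and 40.9 to 50.9 CPM, endocrine genes to 10.1 to 17.9, 9.24 to 16.2 and 16.2 to 22.8 CPM and muscle genes to 3.93 to 5.92, 15.2 to 22.2 and 9.49 to 16.3 CPM in SAG GFP+, RA GFP+ and RA GFP- libraries. Genes called higher and lower numbered 2 and 3 of 8 crest, 0 and 0 of 5 tested sensory, 1 and 0 of 3 oligodendrocyte, 0 and 2 of 3 endocrine and 0 and 1 of 2 muscle genes in RA GFP+ against RA GFP- libraries, and 0 and 1, 1 and 3, 0 and 1, 1 and 0, and 0 and 1 of the same lists in SAG GFP+ against RA GFP+ libraries. In SAG GFP+ against RA GFP- libraries they were 2 and 4, 0 and 3, 0 and 0, 0 and 0, and 0 and 1, beside 5 and 1 of 7 motor neuron, 5 and 0 of 8 mesenchyme (3 higher without RA GFP- replicate 1), 0 and 3 of 8 endoderm and 1 and 3 of 9 progenitor genes. The 4 lower crest genes were 2 without RA GFP- replicate 3 or SAG GFP+ replicate 2 or 3. With 1 library left out, the lower counts in RA GFP+ against RA GFP- libraries ran from 0 to 2 for endocrine and sensory genes. They ran from 0 to 1 for muscle genes. In SAG GFP+ against RA GFP+ libraries the lower oligodendrocyte and the higher endocrine count ran from 0 to 1. Lists this small give counts that say little beside the shares of all tested genes. Defining genes with 0 counts were Ins1 and Gcg in all groups, Afp in SAG GFP+ and RA GFP- libraries, Osr1 and Myog in SAG GFP+ libraries, and Lhx3 and Pax4 in RA GFP+ libraries.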

How the data were processed

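RNA of sorted mouse neural tube organoid cells was sequenced after poly(A) selection with a directional kit (per the labels' protocols). The authors deposited raw read counts, 1 whole number for each Ensembl gene and library. The submitters' processing notes name Bowtie2 2.3.4.1, featureCounts from Subread 1.6.2, Trim Galore 0.5.0 and the build GRCm38. For strand setting, annotation release and multi-mapped reads, the steps were not given in the sources used here. The RA dose is 250 nM in the series text and 250 µM in the treatment protocol, and SAG is named in titles alone, with no dose.

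Symbols, exons and coordinates (1-based) came from GENCODE M21 of the same build. Genes were kept by filterByExpr (minimum count 10) and tested with edgeR 4.0.16 (R 4.3.3): TMM scaling, 1 mean per group over 9 libraries, quasi-likelihood tests and Benjamini-Hochberg adjustment over all 16772 tested genes. A gene is called when its adjusted p is under 0.05. SE is the log2 fold change over the square root of F. The steps were tested on simulated data.

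The members and lists were chosen with earlier results of these data known. Named are all members, the up to 3 called genes of each list with the smallest adjusted p in a comparison, the nearest genes by pattern and Foxa2; Nefh, Stmn1, Stmn4, Elavl1 and, as a marker, Pou5f1 were added after their values were seen. Deviations from group means correlated across genes between same-numbered RA GFP+ and RA GFP- libraries (r = 0.273, 0.307 and 0.347), so the numbers pair the RA libraries, although the labels call them biological replicates. For SAG libraries, same-numbered r ran from -0.082 to 0.242, against -0.302 to 0.152 between different numbers, so pairing there is unclear. Alternatives were other scaling (RLE, upper quartile, library totals), no filter, DESeq2 1.42.0, limma 3.58.1 voom, the compared libraries alone, a replicate block and leaving out each library. Leaving out exon length, and single libraries, in shares was chosen after seeing the data. Promoter windows were RefSeq's. Replicates share a cell line, so p-values measure the spread between these cultures.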

Additional observations from a re-analysis of the deposited data

How the results depend on the processing

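No fold change of the 10 genes reversed under the 18 alternatives of each comparison. Of their fold changes under alternatives, 525 kept call and direction, 5 lost and 10 gained a call. The member count called higher in SAG GFP+ against RA GFP- libraries ran from 3 to 5 with 1 library left out (5 without SAG GFP+ replicate 1), and the count called lower from 1 to 2 (1 without RA GFP- replicate 1 or SAG GFP+ replicate 3). The cause was not tested.

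When replicate number was added as a block for the 6 RA libraries, which it pairs, all 10 genes were still called lower, while the calls over all genes were 2615 higher and 2625 lower, against 1424 and 1414 without it. With a block over all 9 libraries or the 6 compared, 10 genes were called higher in SAG GFP+ against RA GFP+ libraries and 4 in SAG GFP+ against RA GFP- libraries. The block changed no other call of the 10 genes. In RA GFP+ against RA GFP- libraries 893 genes were called higher and 890 lower without RA GFP+ replicate 2, and 915 lower without RA GFP+ replicate 1. In SAG GFP+ against RA GFP+ libraries 1641 were called higher, against 954 and 957 without RA GFP+ replicates 1 and 2.

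Of list counts under alternatives, 217 moved by over 1.5 times and 1943 did not. Of other named genes' fold changes, 92 lost their call. All 24 shares that moved did so when exon length was left out, by construction. The number of libraries, 3 a group, limits the precision, as does the low count of Nefm.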

Other observations

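For the lists below, 8.49% of all tested genes were called higher and 8.43% lower in RA GFP+ against RA GFP- libraries. The shares were 9.78% and 14.8% in SAG GFP+ against RA GFP+ and 12.0% and 16.5% in SAG GFP+ against RA GFP- libraries. Other intermediate filament genes were mixed. Of 12 tested, 2 were higher and 3 lower in RA GFP+ against RA GFP- libraries, 1 higher and 6 lower in SAG GFP+ against RA GFP+ libraries, and 0 higher and 6 lower in SAG GFP+ against RA GFP- libraries. The first higher count was 1 when RA GFP- replicate 3 or RA GFP+ replicate 1 or 3 was left out, and the second was 2 without SAG GFP+ replicate 1. The epithelial keratin gene Krt8 stood at 7.02 ± 2.22 CPM in SAG GFP+, 71 ± 14.9 CPM in RA GFP+ and 32.5 ± 13.8 CPM in RA GFP- libraries (SD, n = 3 each), and its partner Krt18 at 12.6 ± 3.71, 82.7 ± 10.8 and 29.2 ± 11 CPM. Peripherin (Prph), the neurofilament relative of peripheral neurons, was lower in SAG GFP+ libraries (1.39 ± 0.245 CPM) than in RA GFP- libraries (8.35 ± 0.913 CPM; -2.58 in log2 units, SE 0.27, adjusted p = 3.81e-05). Nes, the filament of neural progenitors, moved in the direction of Ina, Nefl and Nefm in both comparisons with RA GFP+ cells: it was higher in SAG GFP+ than in RA GFP+ libraries (321 ± 48.1 against 107 ± 32.8 CPM, adjusted p = 0.000629) and lower in RA GFP+ than in RA GFP- libraries (-1.44 in log2 units, adjusted p = 0.0018). Vim was also lower in RA GFP+ than in RA GFP- libraries (-1.38 in log2 units, SE 0.30, adjusted p = 0.0075).

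Of 17 genes of motors and their adaptors, 2 were higher and 2 lower in RA GFP+ against RA GFP- libraries, 7 higher and 3 lower in SAG GFP+ against RA GFP+ libraries (4 higher without RA GFP+ replicate 1, and 1 lower without RA GFP+ replicate 2, SAG GFP+ replicate 2 or SAG GFP+ replicate 3), and 4 higher and 0 lower in SAG GFP+ against RA GFP- libraries. Kif1a, which carries synaptic vesicle precursors, stood at 149 ± 30.9 CPM in SAG GFP+, 35.9 ± 10.8 CPM in RA GFP+ and 41.5 ± 13.1 CPM in RA GFP- libraries. Of 17 repressors of neuronal genes, 2 were higher and 4 lower in RA GFP+ against RA GFP- libraries (2 lower when RA GFP- replicate 1 or 3, RA GFP+ replicate 1 or 2, or SAG GFP+ replicate 2 was left out), 2 higher and 3 lower in SAG GFP+ against RA GFP+ libraries, and 3 higher and 4 lower in SAG GFP+ against RA GFP- libraries. The motor counts in RA GFP+ against RA GFP- libraries and most repressor counts were near the shares of all tested genes. Those counts are no result about the lists. Rest was lower in SAG GFP+ libraries (86.4 ± 5.3 CPM) than in RA GFP+ libraries (126 ± 9.29 CPM, adjusted p = 0.00634) and RA GFP- libraries (168 ± 18 CPM, adjusted p = 0.000139). Hes1, a Notch effector, was higher in RA GFP+ (126 ± 6.22 CPM, adjusted p = 0.000177) and SAG GFP+ libraries (149 ± 35.6 CPM, adjusted p = 2.93e-05) than in RA GFP- libraries (45 ± 5.39 CPM). Hes5, a further Notch effector of the list, went the other way. It was lower than in RA GFP- libraries in RA GFP+ (-3.21 in log2 units, SE 0.41, adjusted p = 0.00038) and SAG GFP+ libraries (-1.46, SE 0.38, adjusted p = 0.0145).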
